A study of Homo sapiens with 42 samples.

Results

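The proteasome subunit genes described here are the 39 protein-coding genes named PSMA, PSMB, PSMC or PSMD followed by a number, of 58243 genes in the count tables. The rule used their names and biotype and no measured value, and it gave 8 PSMA and 11 PSMB genes of the core particle and 6 PSMC and 14 PSMD genes of the regulatory particle. The libraries came from K562, a chronic myelogenous leukaemia line that carries the BCR-ABL1 fusion. Cultures received nothing (CTRL), 1 µM imatinib (IM), an inhibitor of the BCR-ABL kinase, for 1, 6 or 18 h, 5 µM JTE-607 (JTE), an inhibitor of the cleavage and polyadenylation endonuclease CPSF73, for 1, 6 or 18 h, or 110 mM KCl, an osmotic stress, for 1 or 3 h. Polyadenylated RNA of whole cells (mRNA, 27 libraries in 9 groups) was sequenced for all of these, and rRNA-depleted RNA of nuclei (nuclear RNA, 15 libraries in 5 groups) for CTRL, IM 1h, IM 18h, JTE 1h and KCl 1h. Each group had 3 replicates of 1 cell line, and every comparison with CTRL in a fraction used the same 3 CTRL libraries.

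The proteasome degrades proteins marked with ubiquitin, and its core particle is a stack of alpha rings (PSMA) and beta rings (PSMB), and the proteolytic sites lie on the beta subunits PSMB5, PSMB6 and PSMB7. The regulatory particle caps the core: its ATPases (PSMC) unfold the substrate, PSMD subunits bind and remove the ubiquitin, and a few genes of the PSMD series encode chaperones that assemble the particle but are not part of it. Subunit genes are known to be transcribed together when the transcription factor NFE2L1 is activated by reduced proteasome activity.

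Total counts ranged from 16439848 to 62953314 in the mRNA libraries, where KCl 1h replicates 2 and 3 were deepest at 62953314 and 42474454, and from 16175394 to 25103205 in the nuclear libraries. The erythroid and leukaemia markers GATA1, TAL1, KLF1, HBE1, HBG1, HBG2 and TFRC were all present in CTRL, whereas MS4A1 and KRT5 were at 0. The epithelial marker EPCAM stood at 91.1 ± 4.14 normalized CPM (counts scaled to equal library size, mean ± SD, n = 3) in mRNA CTRL. In 7 of the 9 mRNA groups, all except those at 18 h, replicate 3 had the lowest share of counts on proteasome genes. In CTRL this share was 0.653, 0.623 and 0.555% in replicates 1 to 3. The number of genes called at IM 18h in mRNA is given with and without CTRL replicate 3.

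Promoters are shown for the subunits with the largest and smallest changes at IM 18h, described below. The letters are RefSeq sequence on GRCh38.p14 from 250 bases before to 50 bases after the RefSeq start of the gene, in the direction of transcription. This start can differ from that of the deposited gene. Capitals mark matches on either strand to TGACNNNGC, the core of the antioxidant response element that NFE2L1 binds, and to CCAAT, which may overlap each other's matches. PSMD12 and PSMD14 fell the most in mRNA, and PSMD5 stayed near the CTRL level.
PSMD12, chr17:67366528-67366827, minus strand: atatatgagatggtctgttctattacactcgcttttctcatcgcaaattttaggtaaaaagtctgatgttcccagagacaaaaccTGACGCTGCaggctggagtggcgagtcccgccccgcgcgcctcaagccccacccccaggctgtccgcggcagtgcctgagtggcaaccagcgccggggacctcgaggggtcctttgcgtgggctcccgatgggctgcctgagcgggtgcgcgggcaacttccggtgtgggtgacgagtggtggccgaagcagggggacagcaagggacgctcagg
PSMD14, chr2:161308175-161308474, plus strand: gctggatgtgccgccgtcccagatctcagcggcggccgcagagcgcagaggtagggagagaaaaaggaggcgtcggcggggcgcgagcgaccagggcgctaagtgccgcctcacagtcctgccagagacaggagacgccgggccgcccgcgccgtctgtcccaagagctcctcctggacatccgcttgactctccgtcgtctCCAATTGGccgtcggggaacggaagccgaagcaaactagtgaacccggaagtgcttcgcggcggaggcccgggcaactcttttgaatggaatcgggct
PSMD5, chr9:120842873-120843172, minus strand: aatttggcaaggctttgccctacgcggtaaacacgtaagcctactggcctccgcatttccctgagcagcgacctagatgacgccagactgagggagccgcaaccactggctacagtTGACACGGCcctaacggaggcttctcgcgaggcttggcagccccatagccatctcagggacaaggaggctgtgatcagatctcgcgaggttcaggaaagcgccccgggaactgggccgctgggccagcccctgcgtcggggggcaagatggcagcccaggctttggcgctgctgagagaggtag
A promoter was found for 34 of the 39 genes, all but PSMA7, PSMB1, PSMB6, PSMB7 and PSMD4. TGACNNNGC was present in 8 of the 34 (23.53%) and in 13.55% of all 27058 promoters of that length. These 8 were PSMB3, PSMB9, PSMC4, PSMD1, PSMD3, PSMD5, PSMD9 and PSMD12, so the motif stood in the promoter of the subunit with the largest fall and in that of PSMD5, and was absent from this window of PSMD14. The PSMD14 window lies wholly within the deposited gene, which starts at 161308038, so sequence before that start was not searched. CCAAT was present in 17 of the 34 proteasome promoters and 35.72% of all promoters. GGAA, the core of ETS factor sites, was present in all 34 and in 95.54% of all promoters.

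Levels per length differed widely between proteasome genes in untreated cells. The length is that of all annotated exons of a gene, from 1179 bases for PSMB3 to 9123 for PSMD6. The order therefore depends on annotation as well as on expression. Per length, in RPKM of mRNA CTRL, the beta ring subunit PSMB1 was highest at 133.9 ± 9.33 (SD, n = 3). PSMB3 followed at 126.3 ± 14.2 and the trypsin-like protease PSMB7 at 116.4 ± 10.4, and neighbours in this order lay within one another's spread. The other proteases stood lower, PSMB5 (chymotrypsin-like) at 62.3 ± 8.93 and PSMB6 (caspase-like) at 40.3 ± 4.20 RPKM. Among the alpha ring genes PSMA7 reached 109.0 ± 3.98 RPKM, whereas PSMA6 and PSMA2 were at 0.971 ± 0.207 and 0.953 ± 0.239 RPKM. Both of these, together with PSMA1, PSMD9 and PSMB10, overlap an annotated readthrough gene on the same strand, which covered from 14.1 to 34.8% of their exon bases. Counting in these genes is therefore uncertain, as it is for PSMC1, which shares 75.8% of its exon bases with NRDE2 on the opposite strand.

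The immunoproteasome subunits, which replace the proteases in cells stimulated by interferon, were near the lower limit of detection. PSMB10 had 40, 28 and 40 counts in the mRNA CTRL libraries, PSMB8 had 11, 16 and 7, and PSMB9 had 8, 6 and 13. PSMB11, the thymic form of PSMB5, had 0 counts in all CTRL libraries of both fractions. PSMA8, the testis form of PSMA7, had 4 counts in all 27 mRNA libraries together and 2 in the 15 nuclear libraries. After the filter on low counts 37 genes were tested in mRNA (without PSMA8 and PSMB11) and 38 in nuclear RNA (without PSMA8).

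Changes of proteasome mRNA after imatinib came late. The summed level of the 39 genes was 6594, 6216 and 5523 normalized CPM in the mRNA CTRL libraries and 4427, 4562 and 4629 CPM at IM 18h. The groups did not overlap. At IM 1h the sums were 6050, 6716 and 5460 CPM and at IM 6h 6183, 6567 and 4806 CPM, which overlapped CTRL. These are shares of each library, so that fewer cells of a kind and less RNA per cell cannot be told apart in such bulk samples.

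**Figure D1:**
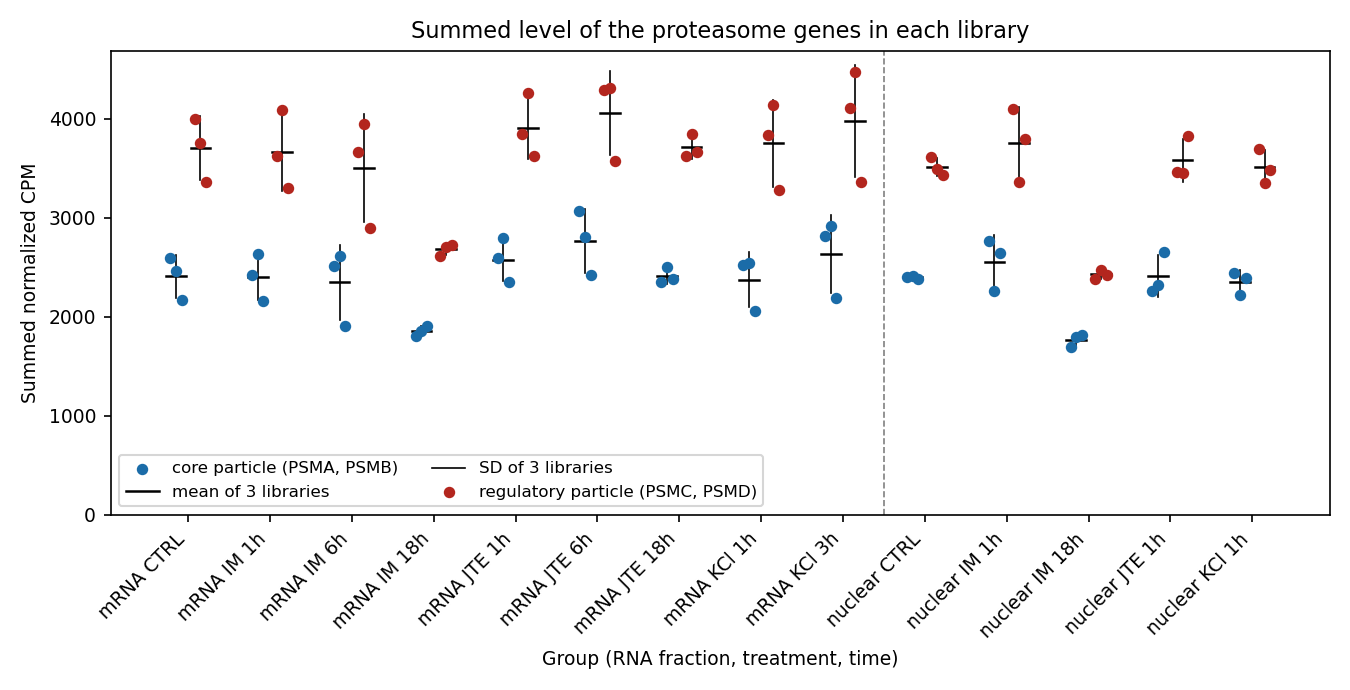
Summed normalized CPM of the core (blue) and regulatory particle genes (red) in each library, by group, with the mean (horizontal bar) and SD (vertical line) of 3 libraries. Both sums were lower at IM 18h than in CTRL, in mRNA and in nuclear RNA, and the replicate 3 point (right of each trio) is low in most other mRNA groups.

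In the following, a gene was called when its adjusted p (edgeR quasi-likelihood test, Benjamini-Hochberg over all genes tested) was below 0.05 and its log2 fold change was beyond 0.6 in either direction. At IM 18h in mRNA, 6 of the 37 genes tested were called lower and none higher, where 13.2% of all genes were called lower. On the adjusted p alone 24 of 37 were lower and none higher, against 21.0% of all genes lower. The median log2 fold change was −0.38 over the proteasome genes and 0.04 over all genes, and 33 of 37 were below 0. When CTRL replicate 3 was left out 10 genes were called, and 4 when CTRL replicate 1 or IM 18h replicate 1 was. On the adjusted p alone, 15 proteasome genes passed when CTRL replicate 1 was left out and 16 when IM 18h replicate 1 was. With no filter on low counts 11 were called.

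Of the markers, 6 of the 7 erythroid and leukaemia genes were called higher at IM 18h in mRNA, against 17.2% of all genes (median 1.29 on the log2 scale), with a summed level of 4065 to 5399 CPM in the CTRL libraries and 10830 to 15250 CPM at IM 18h. Of 8 markers of other cell types 5 could be tested, of which 1 was higher and 2 lower. Of all genes 22.8% were higher and 21.0% lower on the adjusted p alone, and 17.2% and 13.2% were called higher and lower. The sum of the 8 markers was 96.6 to 104.8 CPM in CTRL and 87.7 to 92.5 CPM at IM 18h, and KRT5 and MS4A1 were at 0 in both. The part of these cell markers in the proteasome values was not tested.

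All 6 called genes belonged to the regulatory particle. PSMD12, a lid subunit (chromosome 17, 67337916 to 67366627, GRCh38, coordinates as deposited), had 242.0, 226.8 and 205.3 CPM in CTRL and 115.0, 129.8 and 116.4 CPM at IM 18h. The highest treated library was far below the lowest CTRL library. Its log2 fold change was −0.90 ± 0.13 (SE, adjusted p = 6.97e-06, edgeR), the largest fall of any proteasome gene in mRNA. PSMD14, the deubiquitinase of the lid that removes ubiquitin chains from the substrate (chromosome 2, 161308038 to 161411717), had 261.8, 277.6 and 236.0 CPM in CTRL and 153.1, 148.2 and 162.3 CPM at IM 18h. Again the groups did not overlap, with a log2 fold change of −0.74 ± 0.12.

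The lid subunits PSMD11, PSMD13 and PSMD7 changed by −0.72 ± 0.13, −0.71 ± 0.15 and −0.64 ± 0.12 on the log2 scale. PSMC4 was the only ATPase called, at −0.61 ± 0.16. PSMD7 and PSMC4 lay close to the threshold and were not called without CTRL replicate 1 or without IM 18h replicate 1, and PSMC4 not with the replicate number as a block. PSMD7 shares 30.7% of its exon bases with a long non-coding RNA on the opposite strand. The lid subunit PSMD3 passed the adjusted p just short of the fold threshold, at −0.598 ± 0.14.

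**Figure D2:**
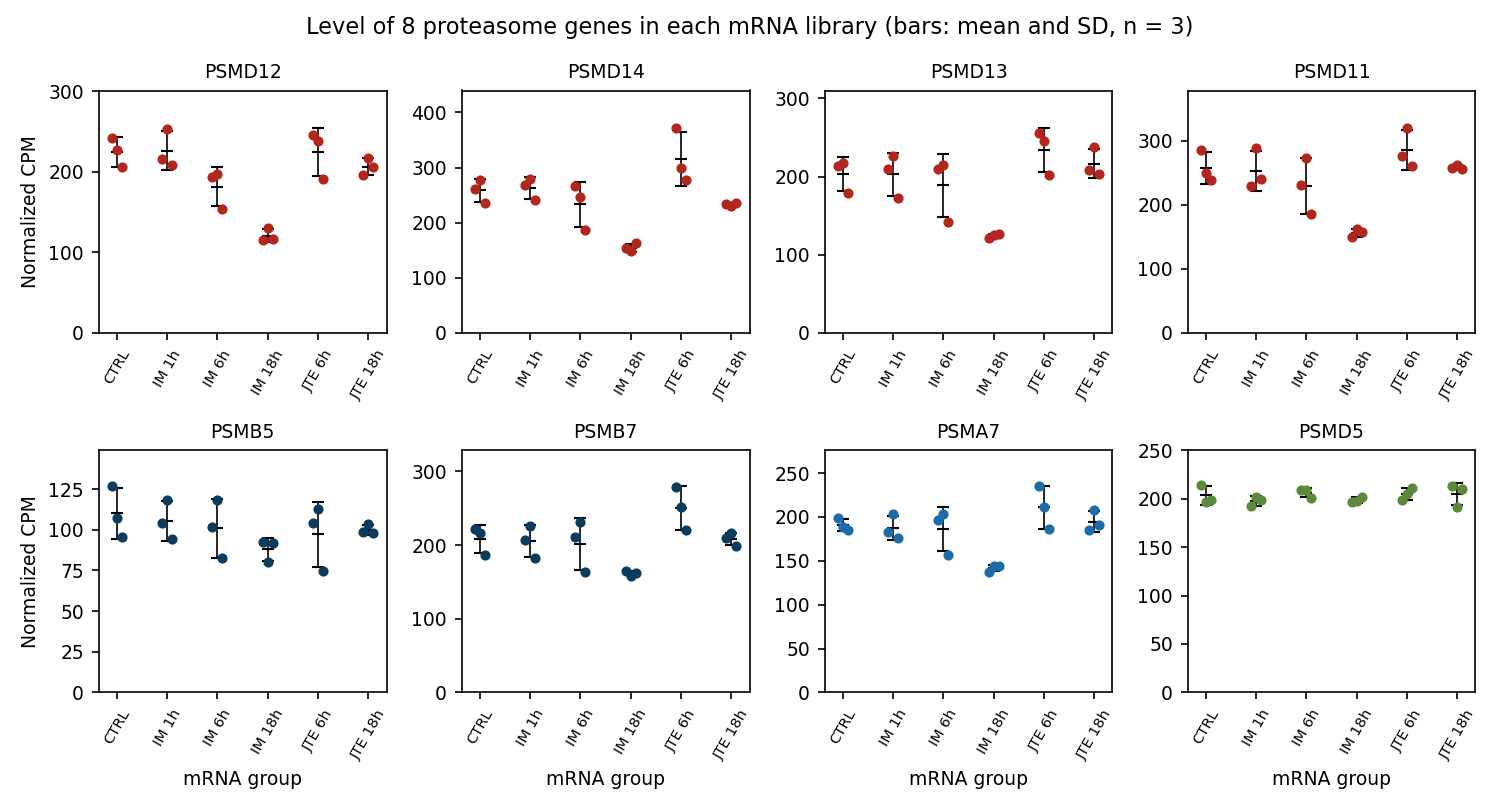
Normalized CPM of 8 proteasome genes in each library of 6 mRNA groups, with points for the 3 replicates and bars for their mean and SD. The 3 IM 18h libraries of PSMD12 lie between 115.0 and 129.8 CPM, below every other group shown, whereas those of the chaperone PSMD5 lie between 196.6 and 202.0 CPM and overlap CTRL.

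The other regulatory particle subunits had smaller changes. Of the 11 non-ATPase subunits 9 were lower on the adjusted p alone, against 21.0% of all genes, with a median log2 fold change of −0.60 and a range from −0.90 to −0.24, and PSMD1 and PSMD6 did not pass. Of the 6 ATPases 5 were lower, against the same share (median −0.44), all but PSMC6. The ubiquitin receptor PSMD4 had 176.0, 173.7 and 152.6 CPM in CTRL and 135.8, 136.2 and 139.3 CPM at IM 18h. It passed the adjusted p at a log2 fold change of −0.29 ± 0.10, with no overlap between groups.

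None of the 3 assembly chaperones passed. PSMD5, which holds ATPases during assembly of the base, had 214.1, 197.0 and 198.7 CPM in CTRL and 196.6, 197.5 and 202.0 CPM at IM 18h. The ranges overlapped and the log2 fold change was −0.03 ± 0.06 (95% interval from −0.16 to 0.09). PSMD9 and PSMD10 (gankyrin) were at 0.35 ± 0.15 and 0.23 ± 0.12 and did not pass.

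No core particle gene reached the fold threshold. Of the 17 core genes tested 10 were lower on the adjusted p alone, against 21.0% of all genes, none was called, and the median log2 fold change was −0.36. PSMB7 had 221.4, 215.8 and 186.8 CPM in CTRL and 164.1, 158.4 and 162.7 CPM at IM 18h (log2 fold change −0.36 ± 0.13), without overlap. PSMB6 passed at −0.35 ± 0.14, whereas PSMB5 did not at −0.32 ± 0.16 (adjusted p = 0.0963, edgeR). The 95% interval of PSMB5 ran from −0.63 to −0.02. The largest core values among those that passed were −0.59 ± 0.18 for PSMA6, −0.55 ± 0.16 for PSMB2 and −0.54 ± 0.14 for PSMA5.

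The summed level of the regulatory particle relative to the core was 1.544, 1.522 and 1.549 in mRNA CTRL and 1.449, 1.458 and 1.427 at IM 18h. In nuclear RNA it was 1.507, 1.449 and 1.439 in CTRL and 1.404, 1.379 and 1.336 at IM 18h. In both fractions every IM 18h library had a lower ratio than any CTRL library. The mRNA ratios at IM 6h, of 1.457, 1.510 and 1.517, were also below CTRL, and JTE 6h replicate 1, at 1.399, was below every IM 18h mRNA library. The immunoproteasome subunits did not move together: PSMB10 was at 0.49 ± 0.27, PSMB8 at −0.56 ± 0.44 and PSMB9 at −0.38 ± 0.60 on the log2 scale, and none passed.

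Before 18 h no proteasome gene was called after imatinib. At IM 1h, 0.0166% of all genes were called. At IM 6h 9.94% of all genes were called and 16.0% passed the adjusted p alone, while 0 of 37 proteasome genes did either. PSMD12 had 193.5, 197.4 and 154.1 CPM at IM 6h, all below the lowest CTRL library, with a log2 fold change of −0.31 ± 0.13 (adjusted p = 0.107, edgeR). The median over the genes was −0.04.

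The change between the 6 h and 18 h imatinib groups was tested directly. Of the 37 genes 10 were lower at 18 h on the adjusted p alone, against 4.69% of all genes, and PSMD13 was called lower at −0.60 ± 0.15, against 1.93% of all genes. PSMD14 and PSMD12 were at −0.59 ± 0.12 and −0.59 ± 0.13. The call of PSMD13 was lost with the replicate block and without IM 6h replicate 1 or 2 or IM 18h replicate 1 or 2. These counts depended on single libraries. Without IM 6h replicate 3, the library with the lowest sum, 23 genes passed and 6 were called. Without IM 6h replicate 1 none passed, without IM 6h replicate 2 there was 1, and without IM 18h replicates 1, 2 or 3 there were 2, 4 and 5.

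**Figure D3:**
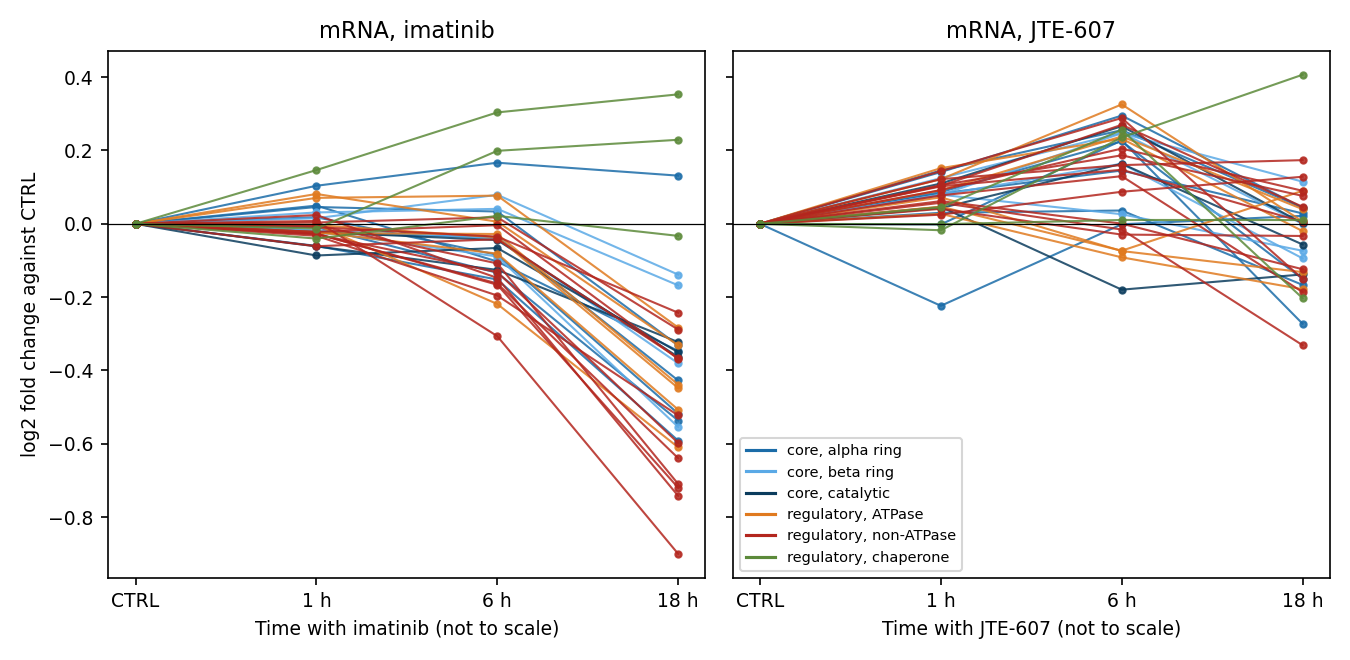
Log2 fold change against CTRL of the 34 proteasome genes outside the immune and thymic forms and PSMA8, in mRNA, at 1, 6 and 18 h of imatinib (left) or JTE-607 (right), 1 line per gene coloured by class. With imatinib the lines spread below 0 at 18 h, to −0.90 for PSMD12, and with JTE-607 most lie above 0 at 6 h and around 0 at 18 h.

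JTE-607 gave no called proteasome gene at any time. At JTE 1h, 0.851% of all genes were called and 0.984% passed the adjusted p alone, and the median over the proteasome genes was 0.08 on the log2 scale. At JTE 6h, when 13.2% of all genes were called and 18.1% passed, none of 37 passed and 27 of 37 had values above 0 (median 0.16). The highest was the ATPase PSMC2 at 0.33 ± 0.13 (adjusted p = 0.0849, edgeR). At JTE 18h, when 5.39% were called and 9.19% passed, the median was 0.00.

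Between JTE 18h and JTE 6h, 3 genes were lower on the adjusted p alone, against 11.0% of all genes, and none was called, against 13.4%. They were PSMA6 at −0.50 ± 0.18, PSMD10 at −0.46 ± 0.12 and PSMD14 at −0.44 ± 0.12. Here the replicate numbers paired the libraries, and with the replicate number as a block 12 genes passed, with no share of all genes given for that fit. Without JTE 6h replicate 1 none passed, and without any one of the JTE 18h libraries 1 did.

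Imatinib and JTE-607 were also compared with each other at matched times. At 18 h, 5 genes were called lower with imatinib, against 13.6% of all genes, and 20 were lower on the adjusted p alone, against 21.0%. These 5 were PSMB2, PSMD3, PSMD11, PSMD12 and PSMD13, from −0.67 ± 0.16 for PSMB2 to −0.80 ± 0.15 for PSMD13. PSMB10 was called higher at 1.33 ± 0.29, against 16.7% of all genes, and with PSMD10 2 genes were higher on the adjusted p alone, against 23.2%. PSMB10 had 2.389, 3.632 and 2.256 CPM with imatinib and 0.963, 1.19 and 1.151 CPM with JTE-607.

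At 6 h PSMB10 was again called higher with imatinib (0.82 ± 0.29), against 13.6% of all genes called higher and 18.1% higher on the adjusted p alone. PSMA5, PSMC2 and PSMD14 were lower on the adjusted p alone, against 16.7%. The replicate numbers paired these libraries too, and with the replicate number as a block 15 genes passed, 14 of them lower. No share of all genes is given for that fit. The call of PSMB10 was lost without IM 6h replicate 3 or JTE 6h replicate 3. Without IM 6h replicate 3 no gene passed, without JTE 6h replicate 1 there was 1, and without IM 6h replicate 2 or JTE 6h replicate 3 there were 7.

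**Figure D4:**
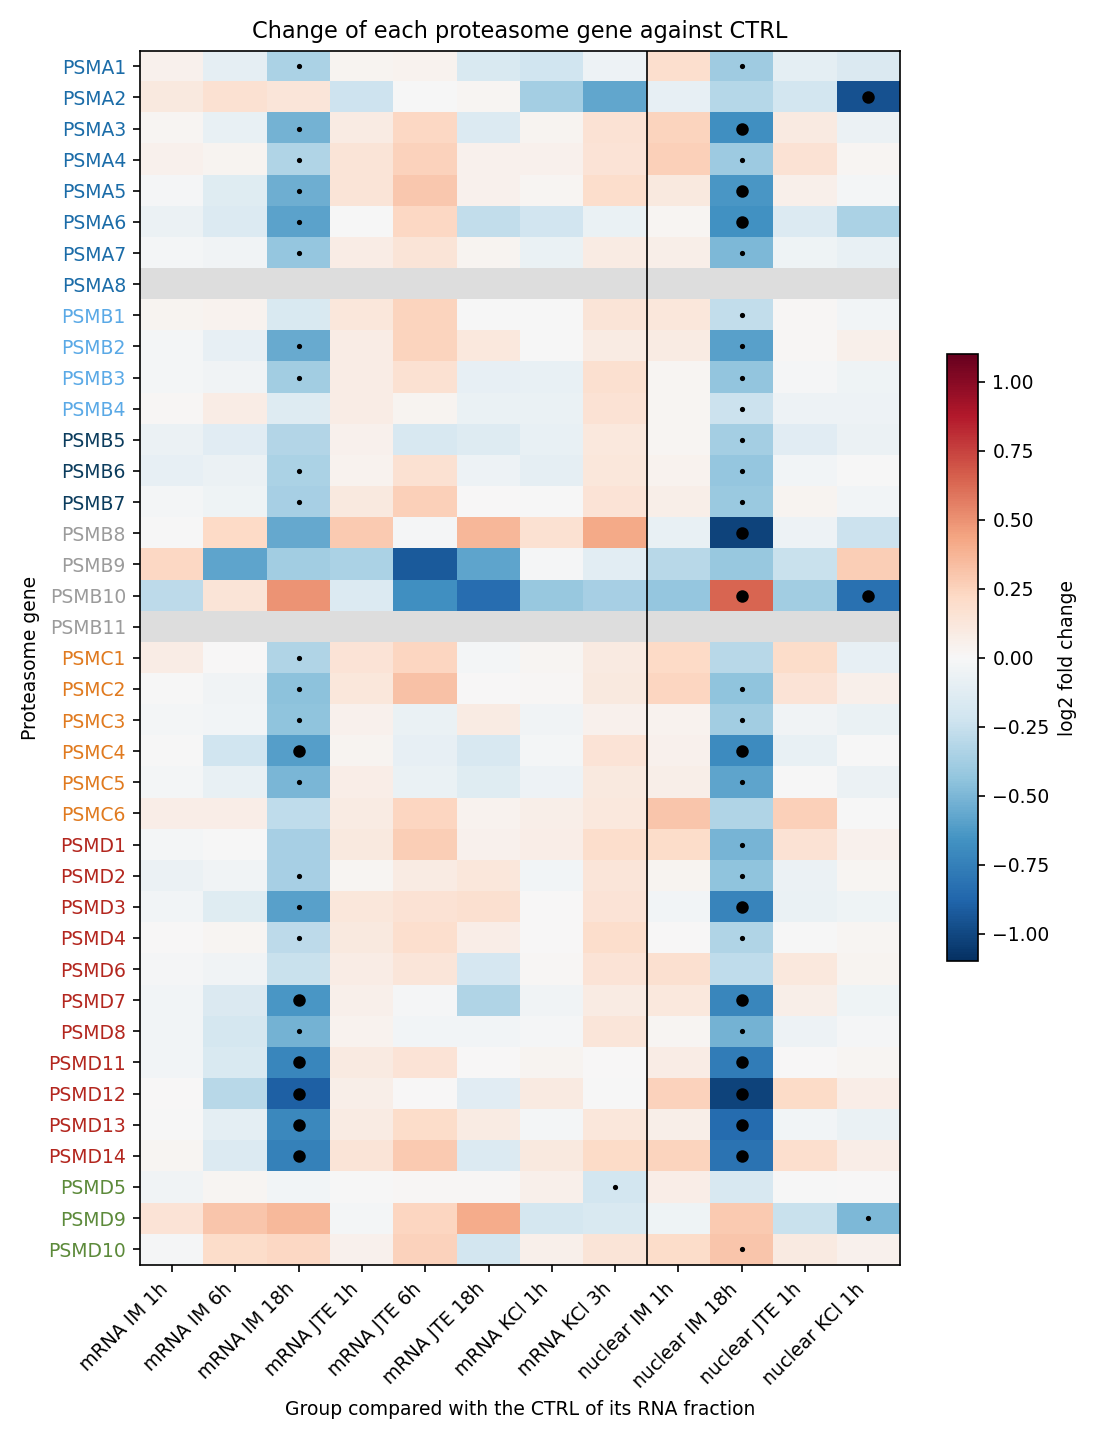
Log2 fold change of the 39 proteasome genes (rows, label colour by class) in the 12 comparisons with CTRL (columns), blue lower and red higher. Small dots mark an adjusted p below 0.05 and large dots genes also beyond 0.6 on the log2 scale. Grey rows are PSMA8, which was not tested, and PSMB11, whose values are left out. PSMB11 was called higher in nuclear RNA at IM 18h and KCl 1h, with 0 counts in CTRL. The IM 18h columns carry 24 marks in mRNA and 30 in nuclear RNA.

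Potassium chloride left most proteasome mRNAs near the CTRL level. At KCl 1h none of 37 genes was called or passed, against 5.45% and 6.24% of all genes. At KCl 3h none was called, against 11.9%, and 1 was lower on the adjusted p alone, against 9.03%. This was PSMD5, with 177.1, 179.5 and 173.2 CPM at KCl 3h against the CTRL values above. The groups did not overlap, but the fall was small (−0.20 ± 0.06), and it did not pass without CTRL replicate 1 or 2 or any one of the KCl 3h libraries. PSMD5 was also lower at KCl 3h than at KCl 1h (−0.26 ± 0.06), the 1 gene that passed there, against 3.02% of all genes lower and 3.29% called. It did not pass without KCl 1h replicate 2 or without KCl 3h replicate 1 or 3.

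Proteasome genes were lower at IM 18h in nuclear RNA too. The summed level was 6010, 5900 and 5819 CPM in nuclear CTRL and 4083, 4271 and 4240 CPM at IM 18h, with no overlap. Of 38 genes 11 were called lower, against 15.4% of all genes, and 28 were lower on the adjusted p alone, against 23.1%. The median log2 fold change was −0.43 over the proteasome genes and 0.00 over all genes. Without nuclear CTRL replicate 1, 8 genes were called. Of the erythroid and leukaemia markers 6 of 7 were higher on the adjusted p alone, against 22.6% of all genes. The sum of the 7 was 4773 to 6363 CPM in nuclear CTRL and 11170 to 13500 CPM at IM 18h. Of the 5 markers of other cell types tested 1 was higher and 4 lower. Of all genes 22.6% were higher and 23.1% lower on the adjusted p alone. The sum of all 8 markers of other cell types was 77.4 to 107.3 CPM in CTRL and 60.7 to 71.9 CPM at IM 18h, with KRT5 at 0. The part of the markers in the proteasome values was not tested.

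PSMD12 had 181.6, 133.0 and 116.3 CPM in nuclear CTRL and 80.9, 74.6 and 57.3 CPM at IM 18h (−1.02 ± 0.22, adjusted p = 0.00184, edgeR). The groups did not overlap. The CTRL libraries themselves were wide apart, and the IM 18h libraries fell in the same order by replicate number. With the replicate number as a block the log2 fold change of PSMD12 was −1.005 ± 0.092. PSMD13, another lid subunit, had 218.0, 225.8 and 216.7 CPM in CTRL and 114.2, 124.0 and 128.9 CPM at IM 18h (−0.85 ± 0.09), and here the replicates were close. PSMD14 was at −0.81 ± 0.16. PSMD3, PSMD7, PSMD11 and PSMC4 were called lower as well, so that 7 of the 11 were regulatory particle genes.

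The 4 core genes called lower in nuclear RNA were PSMA3 (−0.67 ± 0.16), PSMA5 (−0.64 ± 0.10), PSMA6 (−0.67 ± 0.13) and PSMB8 (−1.02 ± 0.33). The call of PSMA5 was lost without any one of the CTRL libraries, that of PSMA6 without CTRL replicate 3, that of PSMA3 without CTRL replicate 1 and that of PSMC4 without IM 18h replicate 1. PSMB8 rested on 29, 29 and 20 counts in CTRL and 17, 6 and 14 at IM 18h, and its call was lost without nuclear CTRL replicate 1 or 2 or IM 18h replicate 2. The 3 proteases all passed: PSMB5 at −0.37 ± 0.11, PSMB6 at −0.43 ± 0.12 and PSMB7 at −0.40 ± 0.10. PSMD4 passed at −0.33 ± 0.09.

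Called higher in nuclear RNA at IM 18h were PSMB10 and PSMB11, against 17.2% of all genes, and with PSMD10 3 genes were higher on the adjusted p alone, against 22.6%. PSMB10 had 3.709, 6.286 and 5.347 CPM in CTRL and 6.94, 7.504 and 9.595 CPM at IM 18h (0.64 ± 0.20). The groups did not overlap, and the call was lost without CTRL replicate 1 or IM 18h replicate 3. PSMB11 had 0 counts in CTRL and 3, 1 and 1 counts at IM 18h, too few for a fold change, and its call was lost without any one of the CTRL libraries, without IM 18h replicate 1 and with DESeq2. PSMD10 was at 0.30 ± 0.12. These libraries were paired by number, and in the blocked fit 33 genes were lower and 4 higher on the adjusted p alone. The share of all genes in the blocked fit is not given here, and the shares above do not apply to it. PSMA2, PSMC1, PSMC6, PSMD5 (−0.18 ± 0.07) and PSMD6 were then among the lower genes and PSMD9 (0.28 ± 0.10) among the higher.

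**Figure D5:**
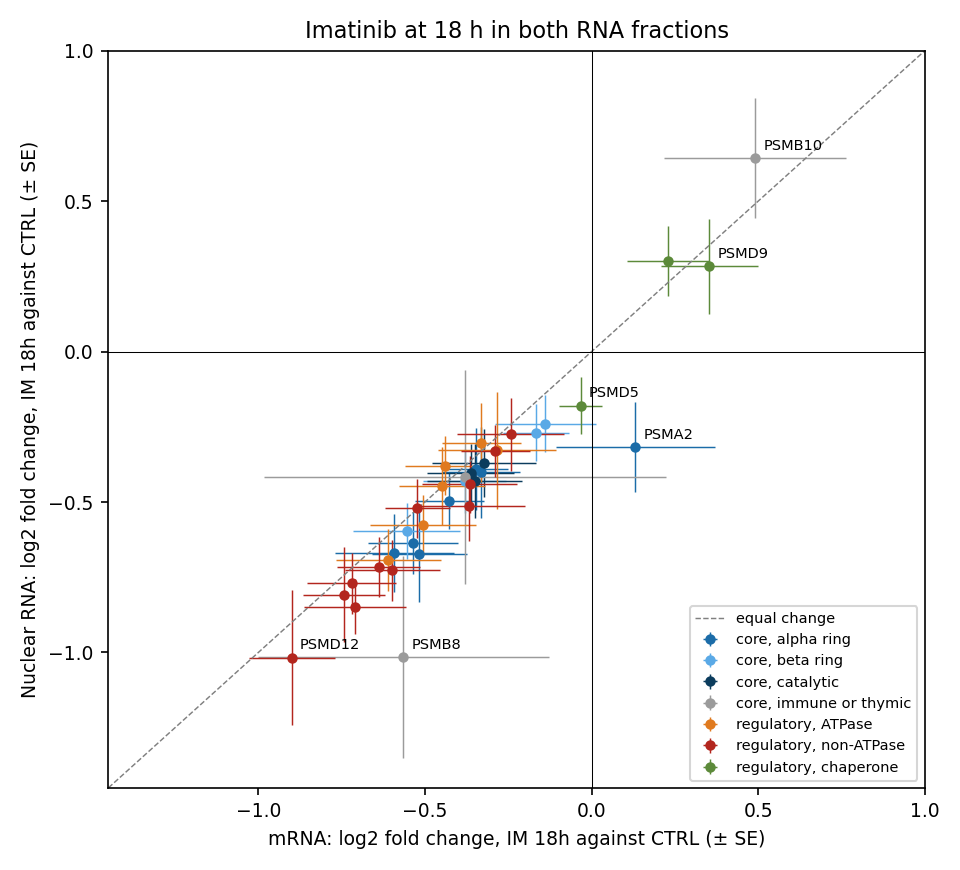
Log2 fold change at IM 18h against CTRL in mRNA (horizontal axis) and nuclear RNA (vertical axis) of the 37 genes tested in both, with SE bars, coloured by class, and the dashed line of equal change. Most genes lie below 0 on both axes, PSMD12 at −0.90 and −1.02, and the chaperones PSMD9 and PSMD10 above 0 on both.

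Whether the response differed between the fractions was tested in 12 libraries per treatment. For IM 18h none of 37 genes was called, against 0.0901% of all genes, and the differences, nuclear minus mRNA, ranged from −0.40 to 0.21 with a median of −0.02. The corresponding counts were also 0 for IM 1h, JTE 1h and KCl 1h, against 0.0%, 0.0605% and 0.668% of all genes. These tests do not show that the responses were equal.

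In nuclear RNA, IM 1h and JTE 1h gave no called proteasome gene, against 0.0456% and 8.52% of all genes called and, for JTE 1h, 9.86% past the adjusted p alone. The replicate numbers paired the nuclear libraries, and in the blocked fit the ATPase PSMC6 was the 1 gene that passed in each, at 0.31 for IM 1h and 0.29 for JTE 1h on the log2 scale.

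At KCl 1h in nuclear RNA 2 genes were called lower, against 8.5% of all genes. PSMA2 had 8.491, 7.38 and 8.714 CPM in CTRL and 4.854, 3.723 and 4.124 CPM at KCl 1h (−0.95 ± 0.16), without overlap. PSMB10 had 2.134, 3.49 and 3.008 CPM at KCl 1h (−0.82 ± 0.22), also below every CTRL library, and its call was lost without CTRL replicate 2. With PSMD9 (−0.49 ± 0.16) 3 genes were lower on the adjusted p alone, against 10.7%, and with the replicate number as a block PSMA6 (−0.35 ± 0.11) was lower as well. PSMA2, PSMB10, PSMD9 and PSMA6 are all among the genes that overlap a readthrough gene on the same strand.

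PSMB11 was called higher at KCl 1h in nuclear RNA, against 15.3% of all genes called higher and 16.6% higher on the adjusted p alone. It had 24, 30 and 31 counts at KCl 1h and 0 in each CTRL library. Its mean of 1.39 ± 0.112 CPM was at least 9.97-fold higher than CTRL, taking 3 counts per CTRL library as the floor. In mRNA it had 0, 10 and 5 counts at KCl 1h and 3, 6 and 4 counts at KCl 3h, against 0 in CTRL. The filter on low counts left it out of the mRNA test, and without the filter it was the 1 proteasome gene called at KCl 3h. The gene (chromosome 14, 23042167 to 23044276, plus strand) has a single exon and lies between PSMB5 and CDH24, both on the opposite strand. The near end of PSMB5 is 6936 bases before the start of PSMB11, and PSMB5 is transcribed away from it. The near end of CDH24 is 2785 bases past that of PSMB11, and CDH24 is transcribed toward it. CDH24 had 387, 437 and 404 counts in nuclear CTRL and 317, 425 and 410 at KCl 1h, and counting used no strand setting. Whether the PSMB11 reads arose from its own promoter or from a neighbour was not tested.

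Other genes of the pathway were followed in 5 lists. At IM 18h in mRNA, 4 of 8 further subunits and assembly factors were lower, all of them called, against 13.2% of all genes called lower, and none higher. The ubiquitin receptor ADRM1 had 58.97, 45.21 and 53.96 CPM in CTRL and 27.91, 28.74 and 25.03 CPM at IM 18h (−0.95 ± 0.16). The core assembly chaperones PSMG3 and PSMG1 were at −0.80 ± 0.13 and −0.73 ± 0.13, and the maturation factor POMP at −0.73 ± 0.13. In nuclear RNA 5 of the 8 were called lower, against 15.4%.

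The activators moved in both directions. PSME3, a subunit of the nuclear activator PA28 gamma, had 440.7, 372.9 and 396.0 CPM in CTRL and 139.8, 185.1 and 185.0 CPM at IM 18h (−1.25 ± 0.17), and PSME1, a subunit of the interferon-induced activator, was higher (0.67 ± 0.11). PSME2, the partner of PSME1, was lower at −0.38 ± 0.13. Of the 14 ubiquitin and shuttle factors 8 were lower on the adjusted p alone, against 21.0% of all genes, none called, with UCHL5 at −0.58 ± 0.12, VCP at −0.52 ± 0.10 and UBQLN4 at −0.51 ± 0.13.

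Counts per gene do not separate isoforms, and the study reported more of the longer isoform of NFE2L1 with imatinib. As a gene total NFE2L1 itself did not pass, with 137.8, 121.6 and 145.4 CPM in CTRL and 118.6, 124.0 and 117.6 CPM at IM 18h (−0.17 ± 0.13). Of the 6 genes of its route 3 were lower on the adjusted p alone and 1 higher, against 21.0% and 22.8% of all genes: its possible partners MAFF and MAFK were called lower at −1.70 ± 0.36 and −1.11 ± 0.20, and DDI2, the protease that cleaves it, was at 0.46 ± 0.15. Of 8 antigen processing genes tested 4 were called higher and 1 lower, against 17.2% and 13.2% of all genes, among them ERAP2 at 0.99 ± 0.24, TAPBP at 0.83 ± 0.13 and TAP2 at −1.37 ± 0.13.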

How the data were processed

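Per the labels and the study's methods, the authors trimmed and deduplicated reads, aligned them to GRCh38.p14 with STAR (the submitters' processing notes), kept unique mappers with introns up to 10000 bases, and counted read pairs over exons with featureCounts without a strand setting. The annotation release was not given in the sources used here. The deposited values are raw counts per gene. Biotypes came from GENCODE 44, which held 57532 of the 58243 identifiers. Of the 39 genes, 15 have named pseudogenes, among them PSMD12 and PSMD14. An intron over 10000 bases, which can lose reads, is present in 7. These are PSMA1, PSMA6, PSMA8, PSMB2, PSMB7, PSMD1 and PSMD14.

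Counts were TMM-normalized and tested with edgeR 4.0.16 (quasi-likelihood, filterByExpr, R 4.3.3), fitting the libraries of each fraction together (18095 genes in mRNA, 21929 in nuclear RNA). The scripts were tested on simulated data. The members, lists and tests were chosen with earlier results of these data known. Values are given for the 3 genes with the largest rise and fall among those that passed, the proteases, the immunoproteasome subunits, PSMD4, PSMD14 and members with few counts, and any member may be named. One marker of the cell line is not reported here. Alternatives were DESeq2 1.42.0, its size factors, no filter, only the groups compared, a replicate block and leaving out each library. Shares of all genes called or past the adjusted p are those of the main fit and are not given for the alternatives.

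Same-numbered libraries were taken as paired where all 3 correlations of their deviations from the group means exceeded 0.1, over genes with a mean above 10 CPM. This held for the nuclear comparisons with CTRL (0.235 to 0.891), JTE 18h against 6h, KCl 3h against 1h and IM 6h against JTE 6h, and for no mRNA comparison with CTRL. In mRNA CTRL, deposited replicates 1 and 2 had totals of 18333127 and 19031221, which the study lists in the opposite order. Their numbers may therefore be exchanged. The mRNA correlations of IM 1h with CTRL were −0.237, −0.266 and 0.877 for numbers 1 to 3. Pairing in that other order was not tested, so blocked fits against mRNA CTRL may use mismatched pairs. Replicate numbers here follow the deposited labels. The labels number the libraries of a group as biological replicates of 1 cell line. Where cultures were not independent, p-values measure only the spread between these samples.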

Additional observations from a re-analysis of the deposited data

Results flagged for a closer look

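The difference between 2 time points of the same treatment was tested directly, and 14 differences of proteasome genes passed the adjusted p of edgeR. Between IM 18h and IM 6h in mRNA the log2 fold change was −0.602 for PSMD13, −0.595 for PSMD14, −0.594 for PSMD12, −0.553 for PSMD11, −0.476 for PSMD7, −0.466 for PSMD3, −0.411 for PSMC2, −0.411 for PSMC3, −0.391 for PSMA7 and −0.327 for PSMD8. Between JTE 18h and JTE 6h it was −0.50 for PSMA6, −0.459 for PSMD10 and −0.439 for PSMD14, and between KCl 3h and KCl 1h −0.256 for PSMD5. Of all genes, 4.69% were lower on the adjusted p alone in the imatinib comparison, 11.0% in that of JTE-607 and 3.02% in that of KCl. The differences also depended on single libraries, as described above.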

How the results depend on the processing

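Counts of genes called or past the adjusted p alone are given in that sense below, and the cause of the changes was not tested. With no low-count filter 11 genes were called at IM 18h in mRNA, 1 at KCl 3h, 3 between IM 18h and IM 6h (18 past the adjusted p) and 0 between IM 6h and JTE 6h, and 0 passed between KCl 3h and KCl 1h. With only the 2 groups compared, 0 passed at KCl 3h, 5 between IM 18h and IM 6h, 1 between JTE 18h and JTE 6h, 0 between KCl 3h and KCl 1h and 0 between IM 6h and JTE 6h (0 called). With the replicate block 1 passed at IM 6h, 6 at JTE 6h, 2 at JTE 18h, 2 at KCl 3h, 1 each at nuclear IM 1h and JTE 1h, 23 between IM 18h and IM 6h (0 called), 12 between JTE 18h and JTE 6h and 15 between IM 6h and JTE 6h. Leaving out 1 library gave 4 to 10 called and 15 to 26 passed at IM 18h in mRNA, 8 to 14 called in nuclear RNA, 0 to 6 called and 0 to 23 passed between IM 18h and IM 6h, 0 to 1 called and 0 to 7 passed between IM 6h and JTE 6h, 0 to 1 called and 0 to 1 passed at KCl 3h, 0 to 4 passed between JTE 18h and JTE 6h, 0 to 1 at JTE 6h and 0 to 1 between KCl 3h and KCl 1h. No proteasome gene changed direction in a comparison in which it passed the adjusted p. DESeq2 and its size factors left each of these counts within 1.5 times the main one. PSMB8 to PSMB11 are limited by their low counts. PSMB10 also shares 34.8% of its exon bases with a readthrough gene on the same strand, which had 101 to 140 counts in nuclear CTRL.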
